A study of Mus musculus with 12 samples.

Results

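The Polycomb complex genes described here were Ezh1, Ezh2, Eed, Suz12, Jarid2, Bmi1, Ring1, Rnf2 and Cbx7, chosen by name as 9 of the 36222 genes listed in an RNA sequencing data set of mouse regulatory T cells (Treg). Treg are the CD4+ T cells that carry the transcription factor Foxp3 and restrain immune responses. The 12 libraries fell into 4 groups of 3, each library from sorted YFP+ Treg of the spleen of individual mice. The WT groups came from mice whose Foxp3 gene drives a YFP-tagged Cre recombinase and whose Ikzf1 gene is intact. The cKO groups carried the same Foxp3-YFP-Cre driver together with floxed Ikzf1, so that the gene for the transcription factor Ikaros was deleted in Foxp3-expressing cells only. The strain was B6, and the mice were age-matched young adults. For each genotype 1 group was taken ex vivo without stimulation, and the other was stimulated for 4 h on plate-bound anti-CD3 and anti-CD28 at 1 µg/ml each, which engages the T cell receptor and its co-receptor. No group was cultured without these antibodies, so culture and the antibodies cannot be told apart. Below, stimulation stands for both together.

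Polycomb proteins keep genes silent by marking the histones around them. Polycomb repressive complex PRC2 methylates histone H3 at lysine K27 through the catalytic subunit Ezh2 or its paralog Ezh1, which need the partner subunits Eed and Suz12, and Jarid2 is an accessory subunit that helps PRC2 to bind its targets. PRC1 attaches ubiquitin to histone H2A through the E3 ligases Ring1 (Ring1a) and Rnf2 (Ring1b), paired with a PCGF subunit such as Bmi1, and the chromodomain protein Cbx7 reads the PRC2 mark. In T cells Ezh2 is known to be induced with activation and to be required for Treg to keep their program in inflamed tissue.

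Values are given on 1 of 2 scales, unless TPM alone is written, which is TPM as deposited. A level is in scaled TPM, the deposited TPM (read counts per gene length, relative to the library) divided by a trimmed-mean factor for each library, so that levels may be compared between genes. A difference is in log2(scaled TPM + 1), where 1 unit is a doubling, with its standard error (SE) and the p-value adjusted over all 13318 genes with a group mean of at least 5 TPM, from limma over the 12 libraries. The scaling was used because 1 predicted gene, Gm10800, took between 17.7% and 55.9% of all TPM in a library, the highest share being in cKO stimulated library 3. The libraries held between 8208659 and 20247649 reads, and the members between 211 and 5543 reads in each. In deposited TPM Ikzf1 itself stood in the cKO groups at 40.0% of WT ex vivo and at 33.6% after stimulation. The genotypes did not overlap (exact two-sided permutation test p = 0.1 each, the smallest that 3 against 3 allows). In scaled TPM Ikzf1 was at 37.9 in cKO and 110 in WT Treg ex vivo, and at 27.8 and 68.9 after stimulation. The limma folds were 0.349 ex vivo and 0.409 after stimulation, so the order of the 2 states turned with the scale. The 6 Treg marker genes Foxp3, Il2ra, Ctla4, Ikzf2, Cd4 and Cd3e summed to between 791 and 2315 TPM in every library. Markers of other cells summed to 8.84 to 16.3 TPM for CD8 T cells, 5.65 to 13.5 for myeloid cells, 3.79 to 8.03 for NK cells and 1.87 to 4.77 for erythroid cells. The B cell genes Cd79a and Ms4a1 lay between 0.973 and 3.36 TPM in every library, a level that genes foreign to a Treg reach here. In bulk samples a smaller number of cells of a type and less RNA per cell cannot be told apart.

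By the GENCODE annotation of mm9, the build of the files, all 9 members are protein-coding genes that share no exon with another gene on their strand. Ezh2 lies at chr6:47480273-47545340, Ezh1 at chr11:101052429-101087777, Eed at chr7:97103166-97129493, Rnf2 at chr1:153316536-153347953, Ring1 at chr17:34157737-34161625 and Cbx7 at chr15:79746237-79801549, all on the minus strand. Suz12 lies at chr11:79806608-79847625, Jarid2 at chr13:44824843-45017012 and Bmi1 at chr2:18598645-18608256, on the plus strand. No value in the files is for a part of a gene: each counts reads over all exons.

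Ezh2 and its paralog Ezh1 differ in their start regions as the RefSeq promoter table (GRCm38.p6) gives them, in windows of 300 bases that lie mostly before the start. Both are shown because the results turn on the balance between the pair. Capitals mark a match to the letters TTCCCGC, to TTGGCGC, to TTCGCGC or to TTGCCGC on either strand, the kind of site that E2F cell cycle factors bind. The Ezh2 window lies at chr6:47594981-47595280 on the minus strand, and the Ezh1 window at chr11:101226414-101226713, also on the minus strand.
Ezh2: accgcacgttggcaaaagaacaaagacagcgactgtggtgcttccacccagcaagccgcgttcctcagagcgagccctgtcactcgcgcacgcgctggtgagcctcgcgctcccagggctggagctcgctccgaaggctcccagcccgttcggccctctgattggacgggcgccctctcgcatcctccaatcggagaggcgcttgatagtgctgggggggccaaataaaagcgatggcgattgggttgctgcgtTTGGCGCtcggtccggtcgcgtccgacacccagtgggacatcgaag
Ezh1: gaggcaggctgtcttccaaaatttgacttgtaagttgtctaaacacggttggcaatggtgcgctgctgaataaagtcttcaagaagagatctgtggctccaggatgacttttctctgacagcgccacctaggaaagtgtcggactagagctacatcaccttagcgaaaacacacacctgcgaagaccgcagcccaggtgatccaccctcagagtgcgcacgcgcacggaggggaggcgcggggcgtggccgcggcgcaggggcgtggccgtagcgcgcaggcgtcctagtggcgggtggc
The Ezh2 window held 1 such match, TTGGCGC at position 5 after the start, and the Ezh1 window held none. All 9 members had a window, with a second one for Jarid2, which made 10. Of these, 2 held an E2F-type match (Ezh2 and Suz12), beside 9.64% of the 32544 promoters of the table. The letters GGGAA, the core of the Ikaros motif, were in 7 of the 10 windows and in 62.7% of all promoters, on either strand. In the Suz12 window a GGGAA match on the reverse strand overlapped the E2F-type match TTCCCGC. Neither the Ezh2 nor the Ezh1 window held GGGAA. These matches describe letters in a window and were not tested for binding.

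In WT Treg taken ex vivo the members lay between 11.2 and 32.5 scaled TPM on average. Rnf2, Jarid2, Suz12, Eed and Cbx7 were the higher ones, at 32.5 ± 4.11, 32.4 ± 2.96, 32.4 ± 1.56, 30.4 ± 3.20 and 29.1 ± 3.25 scaled TPM (mean ± SD, n = 3). Bmi1 lay between at 20.7 ± 2.62, and the paralogs Ezh1 and Ezh2 and the ligase Ring1 were lowest at 12.5 ± 0.357, 12.3 ± 1.27 and 11.2 ± 1.39. The spread between mice covers the differences among the 5 highest and among the 3 lowest. Both catalytic PRC2 subunits were less abundant per length than their partners Eed and Suz12.

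**Figure D1:**
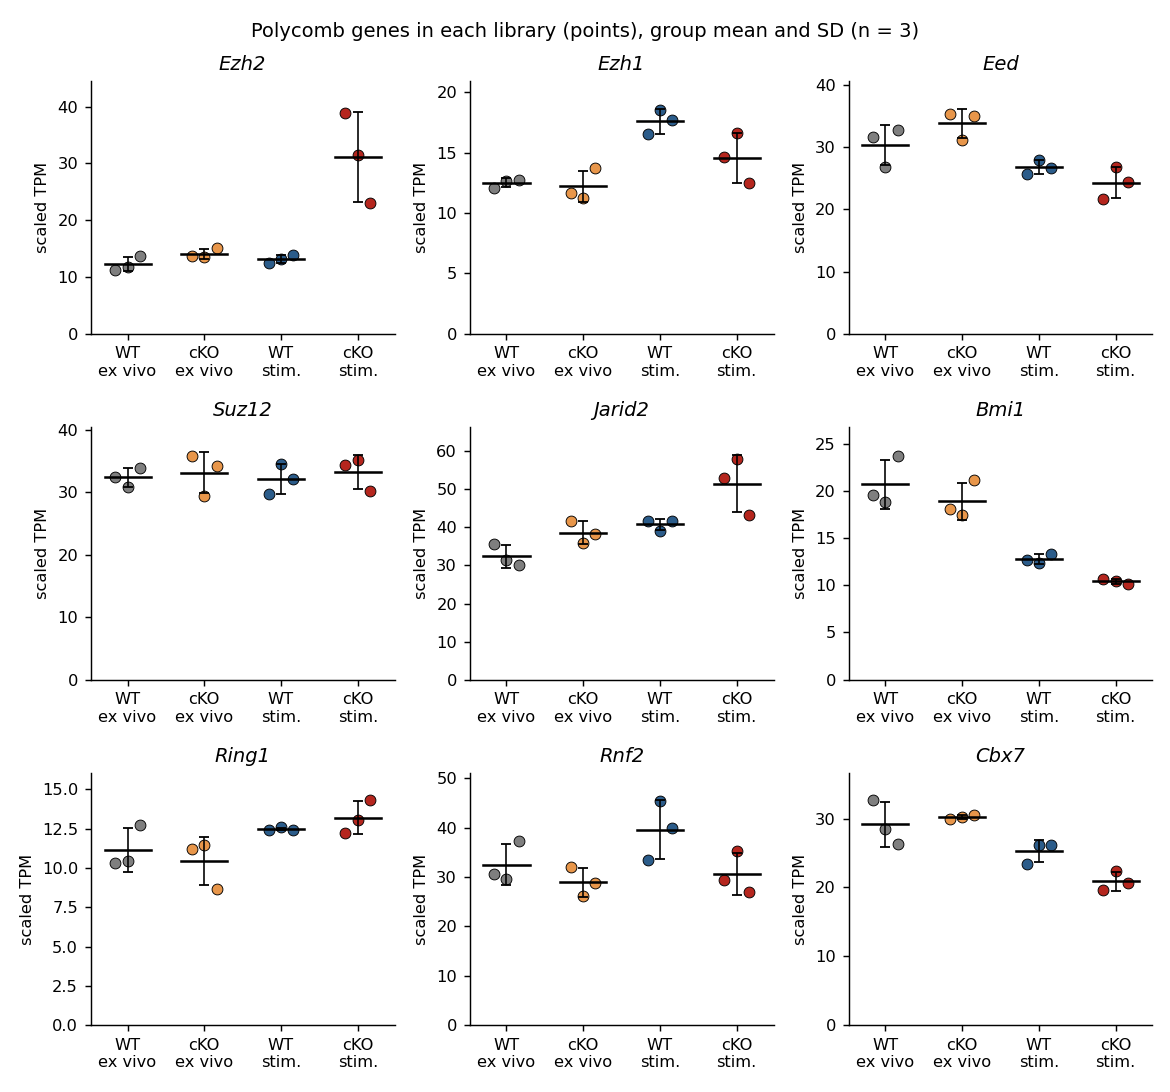
Level of each of the 9 Polycomb genes in scaled TPM (vertical axis, from 0) in the 4 groups of 3 libraries: points are libraries, horizontal lines the group mean and bars the SD. Ezh2 stood at 22.9 to 38.8 in cKO stimulated libraries and at 11.3 to 15.1 in all the others, while Suz12 overlapped between all groups.

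Ezh2, the catalytic subunit with the stronger methylation activity, had the largest difference of any member in the 4 pairwise comparisons. Its levels were 11.3, 11.8 and 13.7 scaled TPM in the WT ex vivo libraries and 13.7, 13.5 and 15.1 in the cKO ex vivo libraries. They were 12.5, 13.2 and 13.9 in the WT stimulated libraries and 38.8, 31.5 and 22.9 in the cKO stimulated libraries. The other 9 libraries overlapped from group to group, and the 3 cKO stimulated libraries stood above all of them, though they also differed most among themselves.

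After stimulation Ezh2 was 2.21-fold higher in cKO than in WT Treg, a difference of 1.14 (SE 0.15, 95% interval 0.80 to 1.48, limma adjusted p = 0.00153). Of the 13318 genes 6.93% were called in this comparison and 3.3% were called as higher, and Ezh2 was the 1 member of 9 called. Stimulation raised Ezh2 2.08-fold in cKO Treg (difference 1.06, SE 0.15, limma adjusted p = 0.000352), whereas in WT Treg the difference was 0.10 (95% interval -0.23 to 0.44, adjusted p = 0.638). Ex vivo the genotypes differed by 0.19 (95% interval -0.15 to 0.53, adjusted p = 0.601). The cKO stimulation call held in 8 of 10 other settings and was lost with no filter and with a filter of 1 TPM, where the difference was 0.54 (adjusted p = 0.190). The stimulation and genotype comparisons share groups, so these values are not independent of each other.

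The interaction of genotype and stimulation asks whether Ezh2 responded differently in the 2 genotypes. It came to 0.95 (SE 0.22, 95% interval 0.47 to 1.43) with a limma adjusted p of 0.0671, so it missed the threshold, in a test that called 1.1% of genes. Limma-voom on the whole reads called it (adjusted p = 0.0038), as did quantile normalization and the fit without cKO stimulated library 3 (adjusted p = 0.0200). It was not called in the remaining 7 of 9 settings nor with any of the other 11 libraries left out.

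The call of Ezh2 between the genotypes after stimulation held in all 12 fits that left out 1 library and in 7 of 10 other settings, median of ratios and quantile normalization among them. It was lost with TPM as deposited, with no filter and with a filter of 1 TPM (difference 0.85, adjusted p = 0.261). In deposited TPM the cKO stimulated libraries stood at 41.0, 28.1 and 16.8 and the WT stimulated ones at 14.1, 12.3 and 16.9, so that cKO stimulated library 3, with the highest share of Gm10800, then fell among the WT libraries. Measured from the median of all tested genes, the difference was 1.18 and ranged from 0.99 to 1.39 over the settings that kept every library. Some B cell markers moved the same way. Ms4a1 was at 1.86 to 3.10 TPM in the cKO stimulated libraries and at 1.15 to 1.396 in the WT stimulated ones, while Cd79b (5.81 to 9.11 against 2.72 to 6.65) and Cd79a (1.81 to 2.23 against 1.86 to 3.36) overlapped. Ex vivo, where Ezh2 was not called, Cd79b stood apart at 11.6 to 12.1 TPM in cKO and 4.72 to 7.65 in WT libraries, and Cd79a and Ms4a1 overlapped. None of them was at 0. Their part in the Ezh2 result was not tested.

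Ezh1, the paralog with weaker methylation activity that is typical of resting cells, followed another course. Its levels were 12.1, 12.7 and 12.7 scaled TPM ex vivo and 16.5, 18.6 and 17.7 after stimulation for WT, and 11.6, 11.3 and 13.7 ex vivo and 14.6, 16.6 and 12.5 after stimulation for cKO libraries. All WT stimulated libraries lay above all WT ex vivo ones, and the cKO stimulated libraries overlapped with every other group. Stimulation raised Ezh1 1.38-fold in WT Treg (difference 0.46, SE 0.11, limma adjusted p = 0.00712). In cKO Treg the difference was 0.24 (95% interval 0.00 to 0.47, adjusted p = 0.0943). Between the genotypes it was -0.26 after stimulation (adjusted p = 0.166) and -0.04 ex vivo (adjusted p = 0.922). The interaction, -0.23 with an adjusted p of 0.518, missed the threshold as well. Under the filter of 1 TPM and with no filter the WT call was lost, and the cKO difference turned to -0.27 and -0.26. With TPM as deposited the cKO difference was -0.07. It was called as higher in 3 of 10 other settings, limma-voom, median of ratios and quantile normalization, with a difference of up to 0.33 and adjusted p down to 0.0269.

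The ratio of Ezh2 to Ezh1 within a library does not move with the scaling, since any factor for the library cancels. In rising order it was 0.931, 0.934 and 1.07 ex vivo and 0.710, 0.760 and 0.786 after stimulation for WT, and 1.10, 1.18 and 1.20 ex vivo and 1.84, 1.89 and 2.66 after stimulation for cKO libraries. None of the 4 groups overlapped with another in this ratio. Ezh2 thus made up 48.2% to 51.8% of the summed Ezh1 and Ezh2 TPM ex vivo and 41.5% to 44.0% after stimulation for WT libraries, and 52.4% to 54.6% ex vivo and 64.8% to 72.7% after stimulation for cKO libraries.

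The geometric mean of the ratio was 0.977 in WT ex vivo and 0.752 in WT stimulated Treg, a log2 difference of -0.38, and 1.16 in cKO ex vivo and 2.10 in cKO stimulated Treg, a log2 difference of 0.86. Between the genotypes the log2 ratio differed by 0.24 ex vivo and by 1.48 after stimulation. Each of these 4 comparisons gave p = 0.1 in the exact two-sided permutation test, the smallest that 20 arrangements allow, and 0.2 after adjustment over the 8 ratio comparisons, so none could pass the threshold at this size. With Suz12 in place of Ezh1, a denominator chosen after the values were seen, the ratio was 0.378 ex vivo and 0.412 after stimulation for WT, and 0.427 ex vivo and 0.918 after stimulation for cKO Treg. The cKO stimulated libraries again lay apart from the groups they were compared with, and the other comparisons overlapped. With Eed as the denominator, also chosen afterwards, the log2 ratio differed with stimulation by 0.29 in WT and by 1.59 in cKO Treg, with the libraries apart in both, so the direction in WT Treg depended on the denominator.

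**Figure D2:**
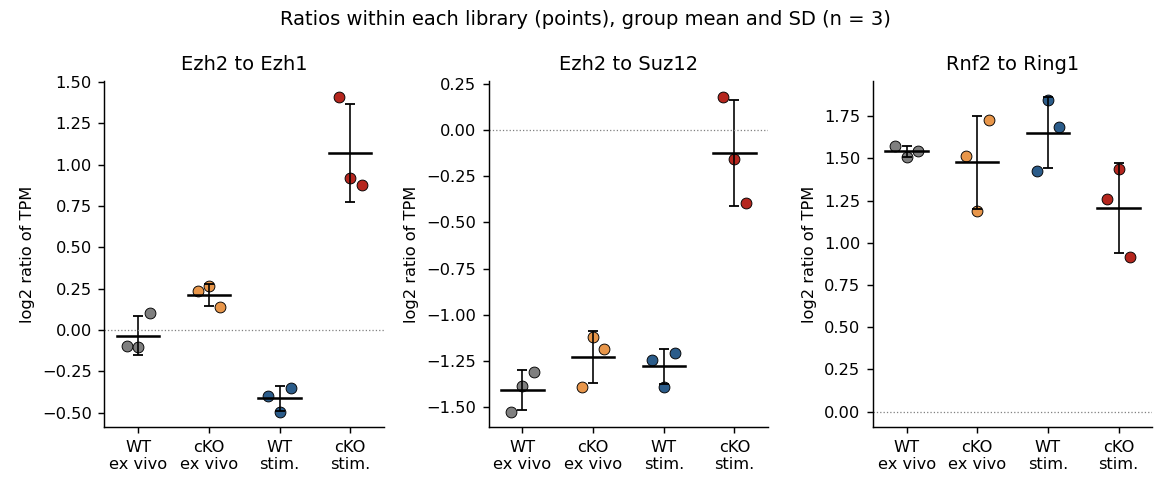
The log2 ratio of TPM within each library (vertical axes) for Ezh2 to Ezh1, Ezh2 to Suz12 and Rnf2 to Ring1 in the 4 groups: points are libraries, lines the mean and bars the SD (n = 3), and the dotted line marks equal levels. The Ezh2 to Ezh1 ratio lay lowest in WT stimulated (0.710 to 0.786) and highest in cKO stimulated libraries (1.84 to 2.66), and Rnf2 to Ring1 overlapped in the 4 comparisons made.

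Eed, the subunit that binds the methyl mark and stimulates the enzyme, and Suz12, the scaffold of the complex, were not called between the genotypes. Eed stood at 31.7, 26.7 and 32.7 scaled TPM ex vivo and 25.7, 28.0 and 26.7 after stimulation for WT, and 35.4, 31.1 and 35.0 ex vivo and 21.7, 26.8 and 24.4 after stimulation for cKO libraries. The stimulated cKO libraries lay under all the cKO ex vivo ones, and the genotypes overlapped in either state. Eed fell with stimulation in cKO Treg by 0.46 on the log2 scale (SE 0.10, limma adjusted p = 0.00422), a call lost under quantile normalization. In WT Treg the difference was -0.17 (95% interval -0.39 to 0.05, adjusted p = 0.226).

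Suz12 levels ran from 29.4 to 35.7 scaled TPM over the 12 libraries, with all 4 groups overlapping. Its 4 pairwise log2 differences lay between -0.01 and 0.05 with limma adjusted p between 0.798 and 0.967, and their 95% intervals lay within -0.23 and 0.26. Apart from the genotype difference ex vivo, which stayed above 0 in all 10 other settings, the sign of these differences changed with the setting, and quantile normalization called it as higher with stimulation in both genotypes (0.20 in WT and 0.40 in cKO Treg, adjusted p = 0.0234 and 0.000419).

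Jarid2, the accessory subunit that helps to place PRC2 on chromatin, had the highest mean level of the members in each group but WT ex vivo, where it lay with Rnf2 and Suz12. In the WT stimulated libraries Jarid2 lay within the range of Rnf2 (33.4 to 45.3). It stood at 35.7, 31.5 and 30.04 scaled TPM ex vivo and 41.7, 39.1 and 41.6 after stimulation for WT, and 41.8, 35.8 and 38.2 ex vivo and 52.9, 58.1 and 43.4 after stimulation for cKO libraries. The cKO libraries lay above the WT libraries in both states. Neither genotype difference passed the test: it was 0.25 ex vivo (95% interval 0.00 to 0.49, unadjusted p = 0.0495, limma adjusted p = 0.278) and 0.32 after stimulation (95% interval 0.07 to 0.56, adjusted p = 0.117). The latter was called under quantile normalization (0.50, adjusted p = 0.00117) and without cKO stimulated library 3 (0.46, adjusted p = 0.0266).

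Stimulation raised Jarid2 in both genotypes, by 0.33 in WT (SE 0.11, limma adjusted p = 0.0444) and by 0.40 in cKO Treg (SE 0.11, adjusted p = 0.0150). The WT call was lost with no filter, with TPM as deposited and with the filter of 1 TPM (0.076, adjusted p = 0.913). It was held in 4 of the 12 fits that left out 1 library, with adjusted p between 0.0172 and 0.124, the highest without WT ex vivo library 3. The cKO call was held in 11 of 12 and was lost without cKO stimulated library 2 (adjusted p = 0.0882). It was also lost with no filter, with the filter of 1 TPM and with TPM as deposited (adjusted p up to 0.820). Under the filter of 1 TPM the cKO difference turned to -0.14, where the median of all tested genes had moved by -0.49. Measured from that median it was 0.37, against 0.41 in the scaling used here.

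Bmi1, the PCGF subunit that holds the ligase in canonical PRC1, fell with stimulation in both genotypes. Its levels were 19.6, 18.8 and 23.7 scaled TPM in WT ex vivo and 18.1, 17.5 and 21.2 in cKO ex vivo libraries, against 12.7, 12.3 and 13.3 in WT stimulated and 10.7, 10.4 and 10.1 in cKO stimulated libraries. Every stimulated library lay below every ex vivo one. In WT Treg it fell by 0.65 on the log2 scale (SE 0.10, limma adjusted p = 0.000579) and in cKO Treg it fell by 0.80 (SE 0.10, adjusted p = 0.000118). These calls held in all 12 fits with 1 library left out, and the WT call was lost with TPM as deposited (adjusted p = 0.133).

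Between the genotypes the stimulated libraries of Bmi1 did not overlap, but the difference of -0.27 did not pass the test (95% interval -0.49 to -0.06, limma adjusted p = 0.126). It was called under quantile normalization (adjusted p = 0.0355). Ex vivo the genotype difference was -0.12 (adjusted p = 0.599).

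Cbx7, the chromodomain subunit that reads the PRC2 mark for canonical PRC1, fell with stimulation in cKO Treg. It stood at 32.7, 28.5 and 26.3 scaled TPM ex vivo and 23.4, 26.1 and 26.2 after stimulation for WT, and 29.9, 30.2 and 30.6 ex vivo and 19.6, 22.4 and 20.6 after stimulation for cKO libraries. The stimulated libraries lay below the ex vivo libraries in both genotypes, and the cKO stimulated ones below all others. In cKO Treg it fell by 0.52 on the log2 scale (SE 0.09, limma adjusted p = 0.00118). Quantile normalization lost this call (adjusted p = 0.0539). In WT Treg the difference of -0.20 did not pass the test (adjusted p = 0.120), and after stimulation the genotypes differed by -0.26 (adjusted p = 0.111).

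Of the ligases, Ring1 was called in 1 comparison and Rnf2 in none. Ring1 stood at 10.3, 10.4 and 12.8 scaled TPM ex vivo and 12.4, 12.6 and 12.4 after stimulation for WT, and 11.2, 11.5 and 8.67 ex vivo and 12.2, 13.0 and 14.3 after stimulation for cKO libraries. The stimulated cKO libraries lay just above the ex vivo ones, and the other pairs of groups compared overlapped. It rose in cKO Treg by 0.32 with stimulation (SE 0.11, limma adjusted p = 0.0422), a call that held in 5 of the 12 fits with 1 library left out (adjusted p up to 0.167, without cKO ex vivo library 3) and in 5 of 10 other settings. Under the filter of 1 TPM this difference was -0.19.

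Rnf2, the more abundant ligase of the pair, stood at 30.7, 29.6 and 37.2 scaled TPM ex vivo and 33.4, 45.3 and 39.9 after stimulation for WT, and 31.9, 26.1 and 28.8 ex vivo and 29.4, 35.3 and 27.002 after stimulation for cKO libraries. Its groups overlapped in each comparison and it was called in none. Quantile normalization called it as higher with stimulation in WT (0.51, adjusted p = 0.00321) and in cKO Treg (0.44, adjusted p = 0.00619). The genotype difference after stimulation was -0.36 (95% interval -0.67 to -0.05, limma adjusted p = 0.152). The ratio of Rnf2 to Ring1 within a library had geometric means of 2.91 ex vivo and 3.14 after stimulation for WT, and 2.78 ex vivo and 2.31 after stimulation for cKO Treg. Its 4 comparisons gave exact two-sided permutation p-values between 0.2 and 0.8, before adjustment.

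**Figure D3:**
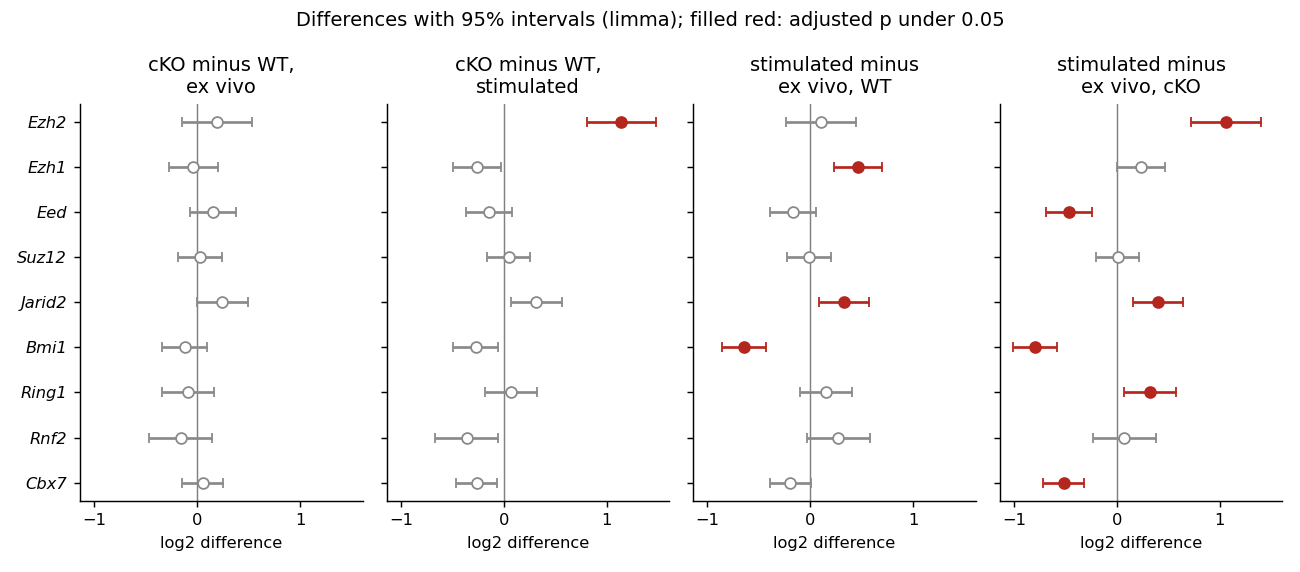
Differences in log2(scaled TPM + 1) for the 9 members (rows) in the 4 pairwise comparisons (panels), with 95% intervals from limma over 12 libraries: filled red points have an adjusted p under 0.05. The call of Ezh2 at 1.14 is the 1 filled point in either genotype panel, and Bmi1 lies at -0.65 and -0.80 in the stimulation panels.

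Ex vivo, then, the test called 0 of the 9 members between the genotypes, with limma adjusted p between 0.278 and 0.938, beside 5.29% of all tested genes. At an unadjusted p under 0.05 there was 1 member (Jarid2), beside 17.9% of genes, and limma-voom also called 0. The groups of 1 member did not overlap, again Jarid2, as was true of 21.5% of all tested genes. After stimulation the groups of 4 members did not overlap (Ezh2, Jarid2, Bmi1 and Cbx7), beside 30.8% of genes, and 6 members had an unadjusted p under 0.05, beside 23.8% of genes, of which 1 was called.

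Stimulation in WT Treg called 3 members, Ezh1 and Jarid2 as higher and Bmi1 as lower, beside 32% of all genes tested (12.7% higher and 19.3% lower). The groups of 4 members did not overlap, beside 47.5% of genes. In cKO Treg it called 6 members, Ezh2, Jarid2 and Ring1 as higher and Bmi1, Cbx7 and Eed as lower, beside 43.8% of all genes (17.3% higher and 26.5% lower). The groups of the same 6 members did not overlap, beside 53.5% of genes. The interaction called 0 of the 9 members, with 2 at an unadjusted p under 0.05 (Ezh2 and Cbx7), beside 14.5% of genes, and 1 called by limma-voom. Thus no member other than Ezh2 was called by either tool as responding differently in the genotypes.

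The wider Polycomb and Trithorax lists held 49 more genes, of which 47 passed the filter of 5 TPM. The filter took a gene whose deposited TPM had a mean of 5 in at least 1 group. All 9 members and 40 of the 47 genes reached it in all 4 groups, and the other 7, Pcgf2, Cbx2, Epop, Pcgf3, Scmh1, Bcorl1 and E2f6, in 1 to 3 of them. A gene that passed only through the groups where it was high had to differ, so the counts over the 47 describe values only. Between the genotypes ex vivo 2 of the 47 were called, both as higher in cKO Treg, and after stimulation 1, also as higher, against the 5.29% and 6.93% of all genes given above. Pcgf2 (Mel18), the PCGF subunit that can take the place of Bmi1 in PRC1, was the 1 gene called in both. It was at 4.06 ± 0.707 in WT and at 8.20 ± 1.14 scaled TPM in cKO Treg ex vivo (mean ± SD, n = 3; difference 0.86, SE 0.13, limma adjusted p = 0.0037).

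After stimulation Pcgf2 was 4.89 ± 0.433 in WT and 9.13 ± 0.222 in cKO Treg (difference 0.79, SE 0.13, limma adjusted p = 0.00447). The ex vivo call held in all 10 other settings (limma adjusted p up to 0.0471, with no filter). The stimulated call held in 7 of 10 (adjusted p up to 0.234, with the filter of 1 TPM). Both held in all 12 fits with 1 library left out. In deposited TPM the WT means of Pcgf2 were 3.79 ex vivo, under the filter of 5 TPM, and 5.32 after stimulation. Its ex vivo call therefore describes values only. These WT means were not far above genes foreign to a Treg, up to 3.36 TPM for Cd79a. Kdm2b, which brings a variant PRC1 to CpG islands, rose from 17.3 ± 2.75 to 28.7 ± 5.38 scaled TPM ex vivo (difference 0.70, SE 0.14, limma adjusted p = 0.0190). This call held in 8 of the 12 fits with 1 library left out (adjusted p up to 0.079, without WT ex vivo library 3) and was lost in 2 of 10 other settings (adjusted p up to 0.575, with the filter of 1 TPM). After stimulation the difference was -0.24 (adjusted p = 0.335). With stimulation Kdm2b rose in WT Treg to 41.7 ± 2.19 (difference 1.24, limma adjusted p = 9.96e-05), and in cKO Treg it was at 35.3 ± 4.47 (difference 0.30, adjusted p = 0.115). Its interaction of -0.94 was not called (limma adjusted p = 0.0561). The WT call was lost in 1 of 10 other settings (adjusted p = 0.0504, with the filter of 1 TPM).

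With stimulation 9 of the 47 genes rose and 8 fell in WT Treg, and 5 rose and 14 fell in cKO Treg. Of all tested genes 12.7% rose and 19.3% fell in WT Treg, and 17.3% rose and 26.5% fell in cKO Treg. Cbx2, a chromodomain subunit of PRC1 like Cbx7, was at 4.22 ± 0.974 ex vivo and 9.02 ± 1.04 scaled TPM after stimulation in WT Treg. In cKO Treg Cbx2 was at 4.50 ± 0.429 and 6.40 ± 0.369, a difference of 0.43 that turned to -0.03 under the filter of 1 TPM. Its cKO call held in 6 of 10 other settings and in 8 of the 12 fits with 1 library left out (adjusted p up to 0.101, without cKO ex vivo library 1). The PRC2 core subunits Rbbp4 and Rbbp7, histone-binding proteins also used by other complexes, both fell in both genotypes, Rbbp7 by 0.47 in WT and by 0.68 in cKO Treg on the log2 scale. In WT Treg the call of Rbbp7 held in 7 of 10 other settings and that of Rbbp4 in 6, with adjusted p up to 0.367 and 0.744, both with TPM as deposited. Over the 10 settings the smallest falls were -0.23 for Rbbp7 and -0.096 for Rbbp4. The WT call of Rbbp4 was lost in 2 of the 12 fits with 1 library left out, as was that of Phf1. Among PRC2 accessory subunits Epop, under 5 TPM in WT ex vivo libraries on average, differed by 0.66 in WT and 0.73 in cKO Treg on the log2 scale, Phf1 fell in both, by 0.36 and 0.54, and Aebp2 rose in WT Treg from 24.8 ± 3.30 to 46.9 ± 3.84 scaled TPM. The filter of 1 TPM ended the calls of Epop in WT (adjusted p = 0.177) and cKO Treg (difference 0.26, adjusted p = 0.354) and that of Aebp2 in WT Treg (adjusted p = 0.183). Under quantile normalization the differences of Phf1 were -0.035 in WT and -0.074 in cKO Treg (adjusted p = 0.776 and 0.483). In cKO Treg Aebp2 was at 32.1 ± 5.22 and 39.1 ± 4.10 (difference 0.28, adjusted p = 0.102), and its interaction was not called (adjusted p = 0.151).

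Among the enzymes that oppose Polycomb, Kdm6a, a demethylase of the PRC2 mark, fell in both genotypes, by 0.56 in WT and by 0.63 in cKO Treg on the log2 scale. Its WT call held in 7 of 10 other settings (adjusted p up to 0.248, with TPM as deposited), and over the 10 the smallest fall was -0.36. Kmt2c, a methyltransferase of the Trithorax group, fell in both as well, by 0.80 and 0.99. The O-GlcNAc transferase Ogt, a partner of the H2A deubiquitinase, rose in WT Treg from 55.2 ± 6.80 to 102 ± 6.44 scaled TPM (difference 0.89, SE 0.13, limma adjusted p = 0.000518), a call lost in 2 of 10 other settings (adjusted p up to 0.204). In cKO Treg it was at 65.5 ± 3.159 and 80.1 ± 14.9 (difference 0.27, adjusted p = 0.117), and its interaction was not called (adjusted p = 0.153). The interaction called 0 of the 47 genes, beside 1.1% of all genes, with 10 at an unadjusted p under 0.05, beside 14.5%, and 1 called by limma-voom.

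**Figure D4:**
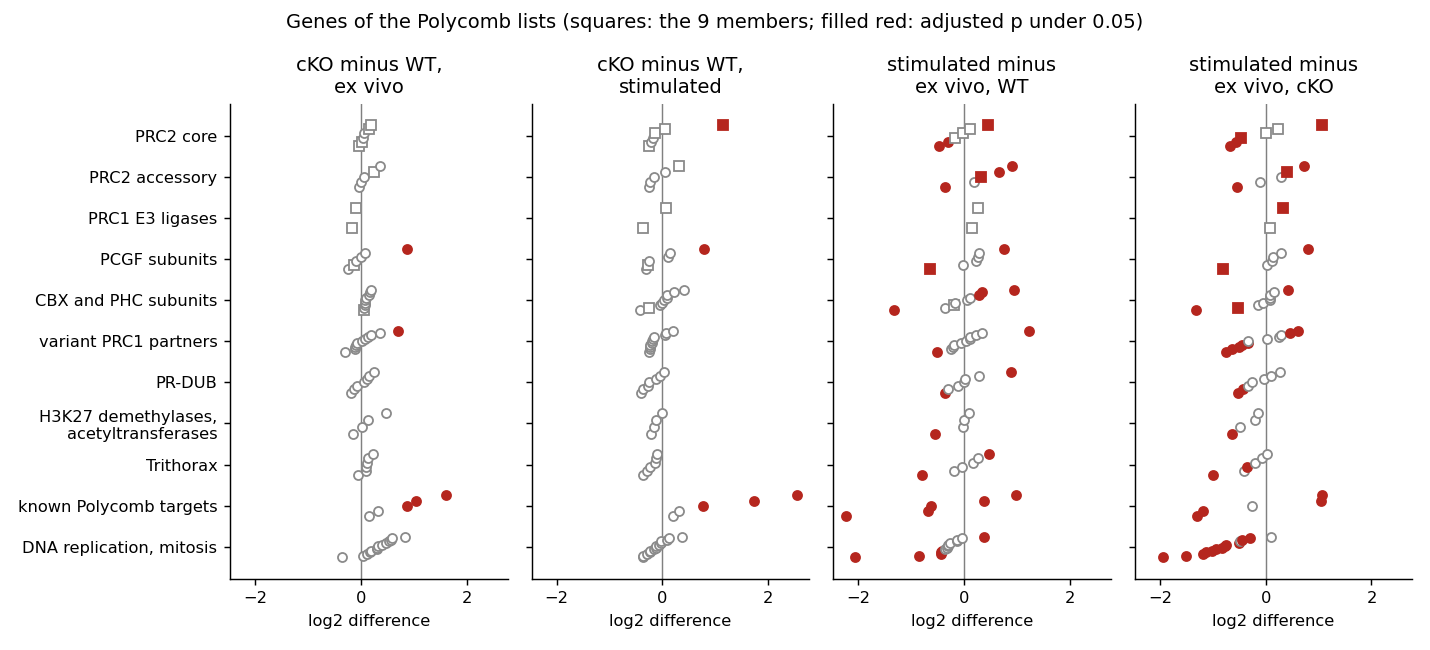
Differences in log2(scaled TPM + 1) for the tested genes of each list (rows) in the 4 pairwise comparisons (panels): squares are the 9 members, circles other genes, and filled red marks have a limma adjusted p under 0.05. In the genotype panels filled marks are few and lie on the side of higher levels in cKO Treg. In the cKO stimulation panel 12 of the 14 DNA replication and mitosis genes are filled on the side of lower levels. Among these 14, Cdk1 and Tyms passed the filter only through their cKO ex vivo mean.

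Of 14 genes known as Polycomb targets in T cells and development, 5 passed the filter, and the others, among them Cdkn2a, Eomes, Il4 and 4 Hox genes, had no group mean of 5 TPM. Of the 5, Gata3 and Il10 reached it in all 4 groups. Ifng was under it in WT stimulated, Tbx21 in WT ex vivo and Cdkn1c in both ex vivo groups. The counts, and the calls of these genes against those groups, therefore describe values only. Ifng, the cytokine of type 1 helper cells, was at 22.5 ± 4.31 scaled TPM in WT and 71.2 ± 19.4 in cKO Treg ex vivo (difference 1.60, SE 0.26, limma adjusted p = 0.00616), and at 4.00 ± 1.08 and 28.5 ± 9.67 after stimulation (difference 2.54, SE 0.26, adjusted p = 0.000325). Tbx21, the transcription factor that directs that program, was at 4.79 ± 0.671 and 10.8 ± 0.218 ex vivo and at 6.48 ± 0.610 and 24.0 ± 3.69 after stimulation (differences 1.04 and 1.73, adjusted p = 0.000932 and 5.51e-05). The ex vivo calls of both were each lost in 2 of 10 other settings, with adjusted p up to 0.0845 for Ifng and 0.0894 for Tbx21.

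Gata3, the transcription factor of type 2 helper cells, was higher in cKO Treg after stimulation (difference 0.76, SE 0.15, limma adjusted p = 0.0122), and Il10, a suppressive cytokine, ex vivo (difference 0.87, SE 0.21, adjusted p = 0.0366). Cdkn1c, an inhibitor of cyclin-dependent kinases, passed the filter only through the stimulated groups. It was higher there by 0.99 in WT and by 1.05 in cKO Treg on the log2 scale, and was not called between the genotypes. Il10 held its call in 6 of the 12 fits with 1 library left out, with adjusted p up to 0.126 without cKO ex vivo library 3, and Gata3 in 10 of 12, with adjusted p up to 0.0642 without WT stimulated library 2. Each was called in 6 of 10 other settings, with adjusted p up to 0.462 for Il10 and 0.492 for Gata3. Ezh2 had a mean of 14.1 scaled TPM in the cKO ex vivo and 31.1 in the cKO stimulated libraries, beside 12.3 and 13.2 in WT.

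Ezh2 is known to rise with DNA replication in dividing cells, and 15 replication and mitosis genes were listed beside it, of which 14 were tested. Cdk1 and Tyms passed the filter only through their cKO ex vivo mean, so the counts over the 14 describe values only. Whether replication had a part in the Ezh2 result was not tested. Between the genotypes 0 of the 14 were called after stimulation (2 at an unadjusted p under 0.05, 1 by limma-voom), with a median difference of -0.12 beside -0.03 for all tested genes, of which 6.93% were called and 23.8% had an unadjusted p under 0.05. Ex vivo 0 were called (6 at an unadjusted p under 0.05, 4 by limma-voom), with a median of 0.31 beside -0.01 for all tested genes, of which 5.29% were called and 17.9% had an unadjusted p under 0.05. With stimulation in cKO Treg 12 of the 14 were called as lower and 0 as higher, beside 26.5% and 17.3% of all tested genes. The median difference was -0.80 beside -0.01 for all tested genes. Pcna, the clamp of DNA polymerase, was at 71.8 ± 15.3 scaled TPM ex vivo and 17.8 ± 3.35 after stimulation in cKO Treg (difference -1.94, SE 0.19, limma adjusted p = 2.93e-05), and Mcm3, a subunit of the replicative helicase, fell by 1.19 on the log2 scale. In WT Treg 5 of the 14 fell and 1 rose, beside 19.3% and 12.7% of all tested genes.

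Over the 12 libraries the genes whose course was most like that of Ezh2 were Spsb1, Irf8 and Mov10, with Pearson r of 0.977, 0.964 and 0.962 in log2(scaled TPM + 1). Irf8, a transcription factor of the interferon response, was at 8.43 scaled TPM in WT stimulated and 22.2 in cKO stimulated Treg on average, and Mov10, an RNA helicase, at 19.1 and 47.4. Zfp26, Baz1b and Taok1 were most like Ezh1 (r between 0.967 and 0.978), Hipk2, Tet2 and Lnx2 most like Jarid2 (0.966 to 0.977), and Srsf11, Gse1 and Utrn most like Cbx7 (0.971 to 0.977). Among the members themselves the highest values of r were those of Eed with Cbx7 (0.84), Bmi1 with Cbx7 (0.83), Ezh2 with Jarid2 (0.82) and Eed with Bmi1 (0.82), and the lowest that of Jarid2 with Bmi1 (-0.81). The points share their groups of stimulation and genotype as well as the library scaling, so these values describe a shared course only.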

How the data were processed

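RNA of sorted Treg was depleted of ribosomal RNA and sequenced as directional libraries. Per the labels and the study's methods, the authors aligned reads with STAR 2.6.0c to mm9, counted them over exons with HTSeq 0.6.1 in the reverse-stranded mode and removed ribosomal RNA features. The authors deposited TPM, a signal per gene length that sums to the same total in each library, and its log2 value, to which they had added the TPM worth 1 read. From this pair of deposited columns the whole reads behind each value were recovered, and 99.9977% of values came out whole within 0.01 of a read. The authors' own edgeR comparisons (fold changes and p-values) were deposited too and not used.

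Of 36222 genes, the 13318 that reached 5 TPM on average in any group were kept. TPM was divided by a factor for each library from trimmed means (30% of log ratios and 5% of levels trimmed), and log2(scaled TPM + 1) was fitted by limma 3.58.1 (trended prior variance) under R 4.3.3, with the 4 groups of all 12 libraries and no covariate. Fold changes are on this scale and understate those of low genes. Calls had a Benjamini-Hochberg adjusted p under 0.05 over all genes tested. Ratios within a library were compared by the exact two-sided permutation test in scipy 1.17.1 under Python 3.11.15, with numpy 2.4.6 and pandas 2.3.3, and figures drawn with matplotlib 3.10.9. The fit was tested on simulated data with known changes. Libraries of a group came from separate animals. The labels do not say whether libraries with the same replicate number share a mouse.

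The members and lists were chosen with earlier results of these data known. Named were all 9 members, of each list at most the 3 called genes of lowest p in a comparison, and for Ezh2, Ezh1, Jarid2 and Cbx7 the 3 genes with the highest Pearson r over the 12 libraries. The alternatives were a filter of 1 TPM or none, TPM as deposited, median of ratios, quantile normalization, pseudocounts of 0.25 and 5, a replicate block, only the 2 groups compared, limma-voom on the whole reads, and each library left out in turn. Some genes of the lists are counted but not reported by name here.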

Additional observations from a re-analysis of the deposited data

Results flagged for a closer look

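The ratio of Ezh2 to Ezh1 moved in opposite directions with stimulation in the genotypes. Every WT stimulated library lay below every WT ex vivo library (log2 difference -0.38), and every cKO stimulated library lay above every cKO ex vivo library (log2 difference 0.86). The difference between these differences was not tested. With Suz12 in place of Ezh1, a denominator chosen after the values were seen, the WT difference was 0.13 with overlapping libraries and the cKO difference 1.10. With Eed in its place, also chosen afterwards, the WT difference was 0.29 with the libraries apart, opposite in sign to that with Ezh1, and the cKO difference 1.59.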

How the results depend on the processing

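Depth and 3 libraries a group limit precision, and Gm10800 makes the scaling matter: with TPM as deposited the median of all tested genes moved by 0.22 and -0.26 in the genotype comparisons ex vivo and after stimulation, and by 0.18 and -0.30 in the stimulation comparisons in WT and cKO Treg. With those values the genotype calls ex vivo (704) became 273, those after stimulation (923) 306, those of stimulation in WT Treg (4262) 1943 and those of the interaction (147) 67. With the filter of 1 TPM they became 57, 68, 1838 and 0, and with no filter 56, 68, 1694 and 0. Beside these 0 calls by limma, 2406 and 2688 genes had an unadjusted p under 0.05, and limma-voom, on the 13318 genes of the filter of 5 TPM, called 386. Limma-voom called 1245 genes between the genotypes ex vivo. Quantile normalization called 1579 after stimulation and 392 for the interaction, and the fit of only the 2 groups compared called 553 after stimulation. With 1 library left out the calls ranged from 325 to 740 ex vivo, from 398 to 1058 after stimulation and from 50 to 206 for the interaction. The cause was not tested.

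Of the differences that changed sign, those of Jarid2, Ring1 and Cbx2 with stimulation in cKO Treg were called in the scaling used here. Ex vivo, with TPM as deposited, the genotype difference turned to 0.18 for Ezh1, 0.11 for Bmi1, 0.13 for Ring1 and 0.0707 for Rnf2. After stimulation it turned to -0.25, -0.25 and -0.24 for Suz12 and to -0.21, -0.21 and -0.20 for Ring1 with the filter of 1 TPM, no filter and TPM as deposited. In WT Treg the stimulation difference turned to -0.14 and -0.11 for Ezh2 and to -0.0848 and -0.0587 for Ring1 with the filter of 1 TPM and no filter. It turned to 0.0225 for Eed with TPM as deposited and to 0.0292 with quantile normalization. For Suz12 it turned to 0.18 with TPM as deposited, 0.0146 with median of ratios, 0.20 with quantile normalization, 0.0063 in the fit of 2 groups and 0.0208 with limma-voom. In cKO Treg it turned, with the filter of 1 TPM and no filter, to -0.27 and -0.26 for Ezh1, -0.53 and -0.52 for Suz12, -0.14 and -0.13 for Jarid2, -0.19 and -0.18 for Ring1, -0.46 and -0.45 for Rnf2 and -0.0306 and -0.0214 for Cbx2. With TPM as deposited it was -0.071 for Ezh1, -0.32 for Suz12 and -0.25 for Rnf2.

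With 1 library left out the genotype difference ex vivo ranged from -0.0173 to 0.14 for Cbx7, from -0.12 to 0.0137 for Ezh1, from -0.16 to 0.0229 for Ring1 and from -0.0327 to 0.11 for Suz12. For Suz12 it ranged from -0.0224 to 0.14 after stimulation, and its stimulation differences from -0.081 to 0.0402 in WT and from -0.0788 to 0.11 in cKO Treg. For Rnf2 in cKO Treg the range was -0.0764 to 0.20, and for the log2 ratio of Rnf2 to Ring1 ex vivo -0.19 to 0.0801. With Suz12 in place of Ezh1, chosen after seeing the data, the difference in the log2 ratio of Ezh2 was 1.15 between the genotypes after stimulation, 0.13 with stimulation in WT and 1.10 in cKO Treg.

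The replicate numbers were not taken to pair libraries. Deviations of same-numbered libraries between the genotypes correlated at 0.149, 0.257 and 0.078 ex vivo, where each library correlated best with its own number, and at 0.003, 0.037 and -0.069 after stimulation. With the replicate block the interaction called 65 genes, and of the calls of the members that of Ring1 with stimulation in cKO Treg was lost and no other changed.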
